A study of Mus musculus with 27 samples.

Results

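Bone marrow-derived macrophages (BMDM) that had met CpG DNA 2 times were compared with BMDM that had met Poly(I:C) 2 times, on 3 arrays of each group out of 27 arrays in the whole series, 25 of which were analysed here. The members were chosen by their labels alone. Each array was hybridised with the Cy3-labelled RNA of 1 culture of C57BL/6 macrophages, grown for 7 days in L929 conditioned medium from the bone marrow of female mice aged 6 to 8 weeks. In the re-stimulated groups the cells were kept with CpG or with Poly(I:C) for 24 h, washed, placed in fresh medium and given the same ligand again for 4 h. The acute groups received their ligand once, for 4 h, and the naive group received none. By the sample labels the dose of Poly(I:C) was 10 µg/ml and that of CpG 100 µM. The methods of the study give a lower dose for CpG, so that dose is uncertain, and a difference between the groups is one between these ligands as dosed. The methods also describe a replicate at one place as a single mouse and at another as a pool of several, so that the p-values measure the spread between these cultures, whichever they were.

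CpG DNA is sensed in endosomes by TLR9, which signals through the adapter MyD88 to NF-kB, MAP kinases and, in some cells, IRF7. Poly(I:C) is a synthetic duplex of an inosine strand and a cytidine strand. It is sensed in endosomes by TLR3, whose adapter TRIF (the product of Ticam1) leads to IRF3 and type I interferon, and in the cytosol by RIG-I and MDA5 (the products of Ddx58 and Ifih1). Interferon-beta then acts back on the macrophage through its receptor and raises a broad set of interferon-stimulated genes. In macrophages a second meeting with a ligand is known to give a reduced response of some genes and a retained or raised response of others, which is the tolerance and training that the series was made to study.

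Levels are given as log2 intensity, background-corrected by RMA and quantile normalised, so a difference of 1 is 2-fold. A probe was tested if the scanner software marked it as well above background on 2 or more CpG arrays or 2 or more Poly(I:C) arrays, which held for 26339 of the 55681 probes, and 14031 genes with a symbol had such a probe. A probe was called when limma gave an adjusted p under 0.05 and a difference of at least 1.5-fold. A fit that takes the replicate number, which is also the slide, as a block is called blocked below, because same-numbered arrays deviated from their group means together. Each gene is given by its tested probe of highest mean.

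The third Poly(I:C) re-stimulated array stood apart from the other two. Over the probes tested it correlated with its own group at 0.963 and 0.964, while the other pair of that group correlated at 0.986 and the CpG arrays with each other at 0.981 to 0.986. With the mean of the CpG re-stimulated arrays it correlated at 0.978, against 0.944 and 0.953 for Poly(I:C) replicates 1 and 2. A mean of 3 arrays is less noisy than 1 array, so 0.978 cannot be compared with 0.963 and 0.964. Of the 151 probes called higher in CpG, the Poly(I:C) value nearest to the CpG mean was that of replicate 3 in 116. Calls higher in Poly(I:C) are split here by the G content of the probe, described further on. Replicate 3 was nearest in 323 of the 431 with under 9 G in 12 bases and in 6 of the 69 with at least 9 G. The third naive array also stood apart, with 74.9% of probes well above background against 46.7% and 50.2%, and naive levels are given as context with no test. The macrophage label held, since all 14 macrophage identity genes (among them Csf1r, Cd68 and Spi1) were well above background on all 6 arrays. None of the 14 was called by limma, with 5 at an unadjusted p under 0.05. Without Poly(I:C) replicate 3, 3 were called higher in CpG, where 8.56% of all probes were. Granulocyte, mast and erythroid markers followed the replicate number in both groups. Ngp, a protein of neutrophil granules, measured 9.43, 9.32 and 2.69 on CpG re-stimulated replicates 1 to 3 and its values on the Poly(I:C) arrays included 11.55 (replicate 2) and 3.15 (replicate 3). The mean level of the 7 tested markers of that list ran from 4.58 to 7.42 on the CpG arrays and from 4.89 to 9.16 on the Poly(I:C) arrays, limma called 0 of them and 0 had an unadjusted p under 0.05. Of the 7, 6 were higher in Poly(I:C), against 6673 of all 14031 genes, with a median difference of -1.02 (CpG minus Poly(I:C)). Without Poly(I:C) replicate 3 the median was -2.50, and 1 was called higher in Poly(I:C), as were 8.46% of all probes. Of 13 lymphoid markers 6, among them Cd3d, Cd3g and Ms4a1, were well above background on none of the 6 arrays. The part of other cells in the results was not tested. In bulk RNA, fewer cells of a type and less RNA per cell cannot be told apart.

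The genes called higher in Poly(I:C) included 30 of 49 genes of the type I interferon response, and those called higher in CpG included the chemokines Cxcl1 and Cxcl5, the cytokine Il1b and 4 of 31 genes of cholesterol synthesis, oxidation and efflux. In all, 651 probes (2.47%) were called, of which 151 (0.573%) were higher in CpG and 500 (1.9%) in Poly(I:C). The median difference of all probes tested was 0.06, and 229 of the called probes had no gene symbol. Among genes with a symbol 330 (2.35%) were called, with 81 (0.577%) higher in CpG and 249 (1.77%) in Poly(I:C). All 651 probes had the same sign within each of the 3 slides, which a call on 3 against 3 arrays makes likely, so it adds no support. Of all genes with a symbol, 28.5% were higher in CpG and 25% higher in Poly(I:C) within all 3 slides.

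These counts depend on single arrays. The smallest adjusted p was 0.0172, so that many calls lie close to the threshold. Without CpG replicate 1 or CpG replicate 2 limma called 0 probes (4198 and 3989 had an unadjusted p under 0.05), without CpG replicate 3 it called 311, without Poly(I:C) replicate 1 it called 4 higher in CpG and 103 higher in Poly(I:C), and without Poly(I:C) replicate 2 it called 5 and 102. Without Poly(I:C) replicate 3, the array that stands apart, 4483 probes were called, including all 651, and 2255 of them were higher in CpG. That fit called 8.46% of the probes higher in Poly(I:C) and 8.56% higher in CpG, the shares beside which list counts without that array stand. The blocked fit called 88 probes (0.334%), 13 higher in CpG and 75 in Poly(I:C), and 72 of them were among the 651. With arrays scaled to a common median instead of quantile normalised, 812 probes were called and the share higher in CpG was 35.3% rather than 23.2%, with a median difference of all probes of 0.26.

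**Figure D1:**
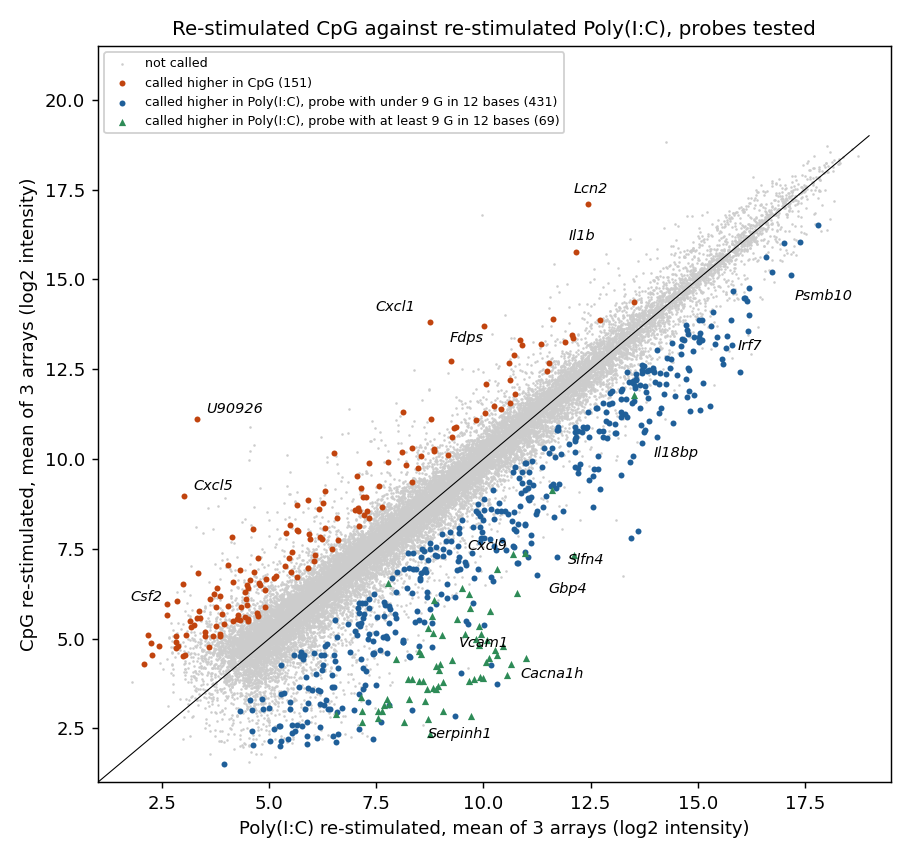
Mean log2 intensity of the 3 CpG re-stimulated arrays against the mean of the 3 Poly(I:C) re-stimulated arrays, 1 point for each of the 26339 probes tested, with the line of equal values. Called probes are coloured, 151 above the line and 500 below it, and triangles mark the 69 of those 500 whose probe has at least 9 G within 12 bases.

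Interferon-stimulated genes had the most calls of the 26 lists. Of the 49 tested genes of the type I interferon response, 30 were called higher in Poly(I:C) and 0 in CpG, against 1.77% and 0.577% of all genes. The median difference was -1.53 (CpG minus Poly(I:C)), against 0.03 over all genes, and 47 of the 49 were lower in CpG within every slide. Over all genes 25% were lower in CpG within every slide and 28.5% higher, and 23.5% had an unadjusted p under 0.05. Without Poly(I:C) replicate 3 the count was 35, where 8.46% of all probes were called higher in Poly(I:C) and 8.56% higher in CpG, and the blocked fit called 2 of them.

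Slfn4, a Schlafen family member expressed in interferon-treated myeloid cells, measured 6.76, 6.20 and 8.84 on the CpG arrays and 12.04, 12.20 and 10.89 on the Poly(I:C) arrays. The groups did not overlap, a condition for naming it here that 29.1% of all genes met. Slfn4 was 21.7-fold higher in Poly(I:C) (difference -4.44 ± 0.72 SE, limma adjusted p = 0.0386, blocked 0.0987). Its relative Slfn1 gave 6.87, 6.59 and 7.86 against 11.55, 11.10 and 9.75, and was 12.9-fold higher (adjusted p = 0.0304, blocked 0.0921). For both genes the third Poly(I:C) array was the lowest of its group and the third CpG array the highest of its group. Irf7, the transcription factor that amplifies interferon production, measured 13.28, 13.37 and 13.64 against 16.08, 16.06 and 14.89 and was 4.75-fold higher in Poly(I:C) (adjusted p = 0.034, blocked 0.0867).

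Other members had values that were tighter within the groups. Ifit2, which binds RNA and restrains viral translation, lay at 11.99, 11.23 and 12.15 in CpG and at 14.97, 14.97 and 14.78 in Poly(I:C) (difference -3.12, adjusted p = 0.0172, blocked 0.0519). Its relative Ifit3 lay at 13.51, 13.16 and 13.97 against 16.22, 15.86 and 16.45, a difference of -2.63 that the blocked fit also called (adjusted p = 0.0172, blocked 0.0424). Cmpk2, a mitochondrial nucleotide kinase, was the other member called under the block, at 12.42, 12.43 and 12.71 against 14.59, 14.69 and 15.04 (difference -2.26, blocked adjusted p = 0.0458). In Ifit3 and Cmpk2 the third Poly(I:C) array was the highest of its group. The members not called included some with the highest levels on the array. Isg15, a ubiquitin-like modifier, lay at 15.96 to 17.34 in CpG and 17.89 to 18.20 in Poly(I:C) (adjusted p = 0.0919), and Ifit1 had an adjusted p of 0.135. Slfn5 was the 1 member of the list that was higher in CpG within all 3 slides (difference 0.85, adjusted p = 0.112).

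The interferon-inducible GTPases, which act on the vacuoles of intracellular pathogens, were all lower in CpG within every slide. Of 20 tested, 12 were called higher in Poly(I:C) with a median difference of -1.91, and 19 had an unadjusted p under 0.05. Without Poly(I:C) replicate 3 there were 18 calls, all higher in Poly(I:C), where 8.46% of all probes were called so. The blocked fit called 0. Mx1 and Mx2 belong to this list and to the interferon list. Other lists share members too. Oas3, counted below under nucleic acid sensing, and Irf7, counted below among the IRFs, are also in the interferon list. Gbp4 measured 6.65, 6.71 and 6.97 on the CpG arrays against 12.11, 12.10 and 9.54, and was 22.2-fold higher in Poly(I:C) (difference -4.47 ± 0.69, adjusted p = 0.0337, blocked 0.0789). Gbp6 gave 8.89, 9.02 and 10.37 against 12.75, 13.08 and 11.58, an 8.25-fold difference (adjusted p = 0.0446, blocked 0.109). Iigp1 varied little in Poly(I:C), at 10.93, 11.07 and 10.96 against 7.77, 8.01 and 8.74 in CpG (adjusted p = 0.0172, blocked 0.0542). Members of the Gbp family are similar in sequence, and their probes may share target RNA.

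Cytosolic and endosomal sensing of nucleic acid gave 7 calls among 24 tested genes, all higher in Poly(I:C), with a median of -0.95 and 0 calls in the blocked fit. With Poly(I:C) replicate 3 left out, 11 were called higher in Poly(I:C) and 2 in CpG, against 8.46% and 8.56% of all probes. Ddx60, a helicase that assists RIG-I, measured 4.48, 4.75 and 5.95 against 7.73, 8.09 and 7.32 and was 6.29-fold higher in Poly(I:C) (adjusted p = 0.0359, blocked 0.0933), with 2 of the 3 CpG arrays well above background. Oas3, which makes the oligoadenylates that activate RNase L, measured 10.94, 10.09 and 11.12 against 13.47, 13.13 and 12.63 and was 5.12-fold higher (adjusted p = 0.0304, blocked 0.0753). The receptor for Poly(I:C) itself, Tlr3, was called, with 4.99, 5.61 and 5.69 in CpG and 7.48, 6.97 and 6.97 in Poly(I:C) (difference -1.71, adjusted p = 0.0332, blocked 0.0946). The receptor for CpG, Tlr9, lay between 10.12 and 10.34 on all 6 arrays, a difference of -0.02 with an adjusted p of 0.948.

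Promoters of these genes are shown because many of the members share an interferon-stimulated response element (ISRE). The ISRE was searched as GAAA, any 2 bases and GAAA on both strands in the 250 bases before each RefSeq start. Of 27025 genes with a promoter, 3.46% hold it. It occurs in 9 of the 11 GTPases with a promoter at hand, in 13 of 33 interferon response genes, and in 28 of 137 genes (20.4%) called higher in Poly(I:C) through a probe with under 9 G in 12 bases, but in 1 of 59 genes called higher in CpG. These are the 250 bases before the start of Ddx60 (GRCm38.p6, chr8:61927837-61928086, plus strand) and of Oas3 (chr5:120777660-120777909, minus strand), 5′ to 3′ with the element in capitals.
Ddx60: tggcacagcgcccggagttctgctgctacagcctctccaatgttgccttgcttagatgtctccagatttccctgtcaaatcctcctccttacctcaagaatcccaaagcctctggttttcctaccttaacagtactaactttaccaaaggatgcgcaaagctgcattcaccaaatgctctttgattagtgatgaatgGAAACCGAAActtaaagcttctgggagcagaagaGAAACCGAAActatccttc
Oas3: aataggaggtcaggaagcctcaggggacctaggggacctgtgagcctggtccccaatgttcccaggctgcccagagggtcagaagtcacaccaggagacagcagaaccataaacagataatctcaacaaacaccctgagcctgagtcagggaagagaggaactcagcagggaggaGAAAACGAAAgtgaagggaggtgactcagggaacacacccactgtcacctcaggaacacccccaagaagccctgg
Ddx60 holds 2 copies, the nearer one centred 14 bases before the start, and Oas3 holds 1 copy centred 70 bases before it. A match describes the sequence and does not show that a factor binds there.

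Genes of MHC class I antigen presentation were mostly lower in CpG. Of 20 MHC class I pathway genes 3 were called, all higher in Poly(I:C), with a median of -1.17, while 18 were lower in CpG within every slide (25% of all genes were) and 18 had an unadjusted p under 0.05. Without Poly(I:C) replicate 3, 15 were called higher in Poly(I:C) and 2 in CpG, against 8.46% and 8.56% of all probes. The blocked fit called 0. Psmb10, a subunit of the immunoproteasome that cuts peptides for class I, measured 14.97, 14.77 and 15.63 against 17.50, 17.46 and 16.59, and was 4.18-fold higher in Poly(I:C) (adjusted p = 0.0392, blocked 0.101). The probe of H2-Gs10, a class I gene that RefSeq lists as H2-Q4 and whose close relatives may share its target, gave 13.19, 12.63 and 13.42 against 16.21, 15.97 and 14.79 (5.96-fold, adjusted p = 0.0374, blocked 0.092).

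MHC class II genes rested on 2 arrays. None of 10 tested was called by limma, and 4 had an unadjusted p under 0.05. H2-Eb1, a class II beta chain, measured 10.30, 10.36 and 10.78 on the CpG arrays and 14.84, 14.71 and 11.18 on the Poly(I:C) arrays. The first and second Poly(I:C) arrays lay far above the rest, and the third lay near the CpG values (difference -3.10, adjusted p = 0.136). Without it 7 of the 10 were called higher in Poly(I:C). Costimulatory and checkpoint molecules gave 2 calls among 20, both higher in Poly(I:C), and without that array 7 higher in Poly(I:C) and 2 in CpG. Of all probes, 8.46% and 8.56% were called so without that array. Vcam1, an adhesion molecule, measured 4.82, 4.65 and 6.66 against 11.05, 10.69 and 8.34 (25.1-fold, adjusted p = 0.0491, blocked 0.112), but only 1 of its 2 tested probes was called. Cd83, a marker of activated antigen-presenting cells, gave 9.48, 9.18 and 10.47 against 13.19, 12.30 and 12.26 (7.33-fold, adjusted p = 0.0296, blocked 0.0753). The naive level of Cd83 was 12.44, so that its CpG values were under those of untreated cells and its Poly(I:C) values near them.

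Of 22 chemokines tested, 3 were called higher in CpG and 2 higher in Poly(I:C), and the blocked fit called 1. The counts were 6 and 4 without Poly(I:C) replicate 3, against 8.56% and 8.46% of all probes. All 3 on the CpG side, Cxcl1, Cxcl2 and Cxcl5, are ligands of the neutrophil receptor CXCR2. Cxcl5 measured 9.37, 10.13 and 7.42 in CpG against 2.74, 3.58 and 2.71 in Poly(I:C), where it was not well above background on any array, so that it was tested through the CpG arrays alone. It was at least 62.4-fold higher in CpG (adjusted p = 0.0216), and the blocked fit kept the call (0.0489). Such a lower limit sets the mean of the brighter group against the lowest signal well above background on each dim array, or against the dim probe itself where that is higher. For Cxcl5, and for Ereg, Lum, Fasn, Celf3 and Ptprg below, the limit equals the fitted fold change. It makes no allowance for the spread between arrays. Cxcl1 measured 13.04, 14.13 and 14.25 against 8.02, 7.54 and 10.66, 33.5-fold higher in CpG (adjusted p = 0.0391, blocked 0.0696). Cxcl2, named after its values were seen, measured 13.13, 13.77 and 14.20 against 9.62, 9.29 and 11.15 (12.8-fold, adjusted p = 0.0296, blocked 0.0521), through a G-rich probe of the kind described further on. The groups did not overlap in these 3 genes. That was a condition for naming Cxcl1 and Cxcl5, met by 29.1% of all genes, so it adds no support.

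The 2 chemokines called on the Poly(I:C) side were Cxcl9 and Ccl8. Cxcl9, an interferon-induced attractant of T cells, measured 6.51, 6.95 and 8.33 in CpG and 11.91, 11.43 and 9.80 in Poly(I:C) (13.8-fold, adjusted p = 0.0466, blocked 0.111). Ccl8, which attracts monocytes, measured 9.91, 10.15 and 10.19 against 13.20, 13.07 and 11.76 (6.02-fold, adjusted p = 0.0326, blocked 0.0788). Ccl5 was not called, at 18.40 to 18.46 in CpG and 18.55 to 18.82 in Poly(I:C) (difference -0.29, adjusted p = 0.321), though its groups did not overlap. Its value of 18.82 on Poly(I:C) replicates 1 and 2 is also that of Marco on each CpG array. Such levels lie near the top of the scale, where a difference may be compressed. Ccl2 had a difference of -0.24 (adjusted p = 0.827), which changed its sign with a common median or without Poly(I:C) replicate 3. Cxcl3, another CXCR2 ligand, lay at 12.83 to 14.03 against 9.52 to 11.99 without passing the test (difference 2.71, adjusted p = 0.0835, blocked 0.0722).

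The promoter of Cxcl1 is shown for its NF-kB site. The kappaB consensus, searched on both strands in the same 250 bases, is held by 8.23% of all promoters, by 10.6% of those of the genes tested, by 14 of 59 genes called higher in CpG (23.7%) and 16 of 137 called higher in Poly(I:C) with under 9 G (11.7%), by 5 of 15 chemokines, by 8 of 22 cytokines and by 9 of 33 interferon response genes. Below are the 250 bases before the start of Cxcl1 (GRCm38.p6, chr5:90890995-90891244, plus strand), where 2 overlapping matches form the stretch in capitals.
Cxcl1: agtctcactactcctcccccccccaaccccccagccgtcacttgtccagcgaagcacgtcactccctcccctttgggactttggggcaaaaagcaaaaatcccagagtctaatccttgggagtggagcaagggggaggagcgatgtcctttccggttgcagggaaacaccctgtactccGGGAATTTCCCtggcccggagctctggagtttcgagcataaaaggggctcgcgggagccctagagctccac
The nearer match is centred 65 bases before the start.

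Of 29 inflammatory cytokines tested, 3 were called higher in CpG and 4 higher in Poly(I:C), and the blocked fit called 3 in all. Without Poly(I:C) replicate 3 the calls higher in CpG and in Poly(I:C) were 11 and 10, against 8.56% and 8.46% of all probes. Il1b, the pyrogenic interleukin released after inflammasome activation, measured 15.18, 16.28 and 15.79 in CpG against 11.05, 11.91 and 13.50 (12.1-fold, adjusted p = 0.0454, blocked 0.0708). Csf2, which encodes GM-CSF, measured 5.01, 5.98 and 7.12 against 2.41, 3.30 and 2.83, and was at least 8.44-fold higher in CpG since no Poly(I:C) array had it well above background (adjusted p = 0.0419, blocked 0.0701). Il12a, the p35 chain of interleukin-12, was at least 5.39-fold higher in CpG, with values of 4.07, 5.36 and 5.20 against 2.13, 2.03 and 2.57 (adjusted p = 0.0289, blocked 0.069). Il12a was well above background on 2 of the 3 CpG arrays and on no Poly(I:C) array. Il12a and Csf2 were thus tested through the CpG arrays alone.

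On the Poly(I:C) side stood Il18bp, Il15, Csf1 and Fgf8. Il18bp, the secreted antagonist of interleukin-18, measured 10.21, 10.39 and 10.76 in CpG, near the naive mean of 10.23, and 14.23, 14.40 and 12.49 in Poly(I:C) (9.52-fold, adjusted p = 0.0361, blocked 0.0878). Il15, which sustains natural killer cells, lay at 6.90 to 8.14 against 10.03 to 10.77 (difference -3.06, adjusted p = 0.0218, blocked 0.0737). Csf1, the growth factor of macrophages themselves, lay at 7.56 to 7.99 against 9.31 to 10.27 (difference -2.12, adjusted p = 0.0289, blocked 0.0708). The Fgf8 probe belongs to the G-rich probes described further on.

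Most of the cytokines that the study followed on re-stimulation did not pass the test. Il6 measured 14.95, 15.48 and 15.87 in CpG and 10.19, 10.66 and 14.09 in Poly(I:C), so the groups did not overlap but the third Poly(I:C) array lay far above the others in its group (difference 3.79 ± 0.99, adjusted p = 0.1, blocked 0.0964). Il10, the anti-inflammatory cytokine, gave 10.88, 9.79 and 11.43 against 4.94, 5.36 and 9.79 (adjusted p = 0.144). Tnf gave 15.74, 15.06 and 16.34 against 13.17, 12.63 and 15.56, where the groups overlapped (adjusted p = 0.21). All 3 cytokines were highest on the third array in both groups. Of 18 alternatives, Il6 and Il10 were each called higher in CpG in 2 and Tnf in 1, and the fit without Poly(I:C) replicate 3 called all 3, with differences of 5.01, 5.55 and 2.81. Ifnb1, which encodes interferon-beta, measured 10.37, 9.04 and 10.03 in CpG and 13.41, 11.31 and 12.69 in Poly(I:C), a difference of -2.66 with an adjusted p of 0.0718 that 3 alternatives called, among them the blocked fit (0.0489). Within the slides it was lower in CpG by 3.05, 2.28 and 2.67. Il1a, at 9.77, 10.08 and 11.27 against 6.86, 7.22 and 9.0, was likewise called by 3 alternatives (adjusted p = 0.0845, blocked 0.0489). Csf3, which encodes G-CSF, had an adjusted p of 0.0572 (difference 4.37, called by 6 alternatives and well above background on 1 Poly(I:C) array), and Il12b of 0.69 (difference 0.76), with overlapping groups.

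**Figure D2:**
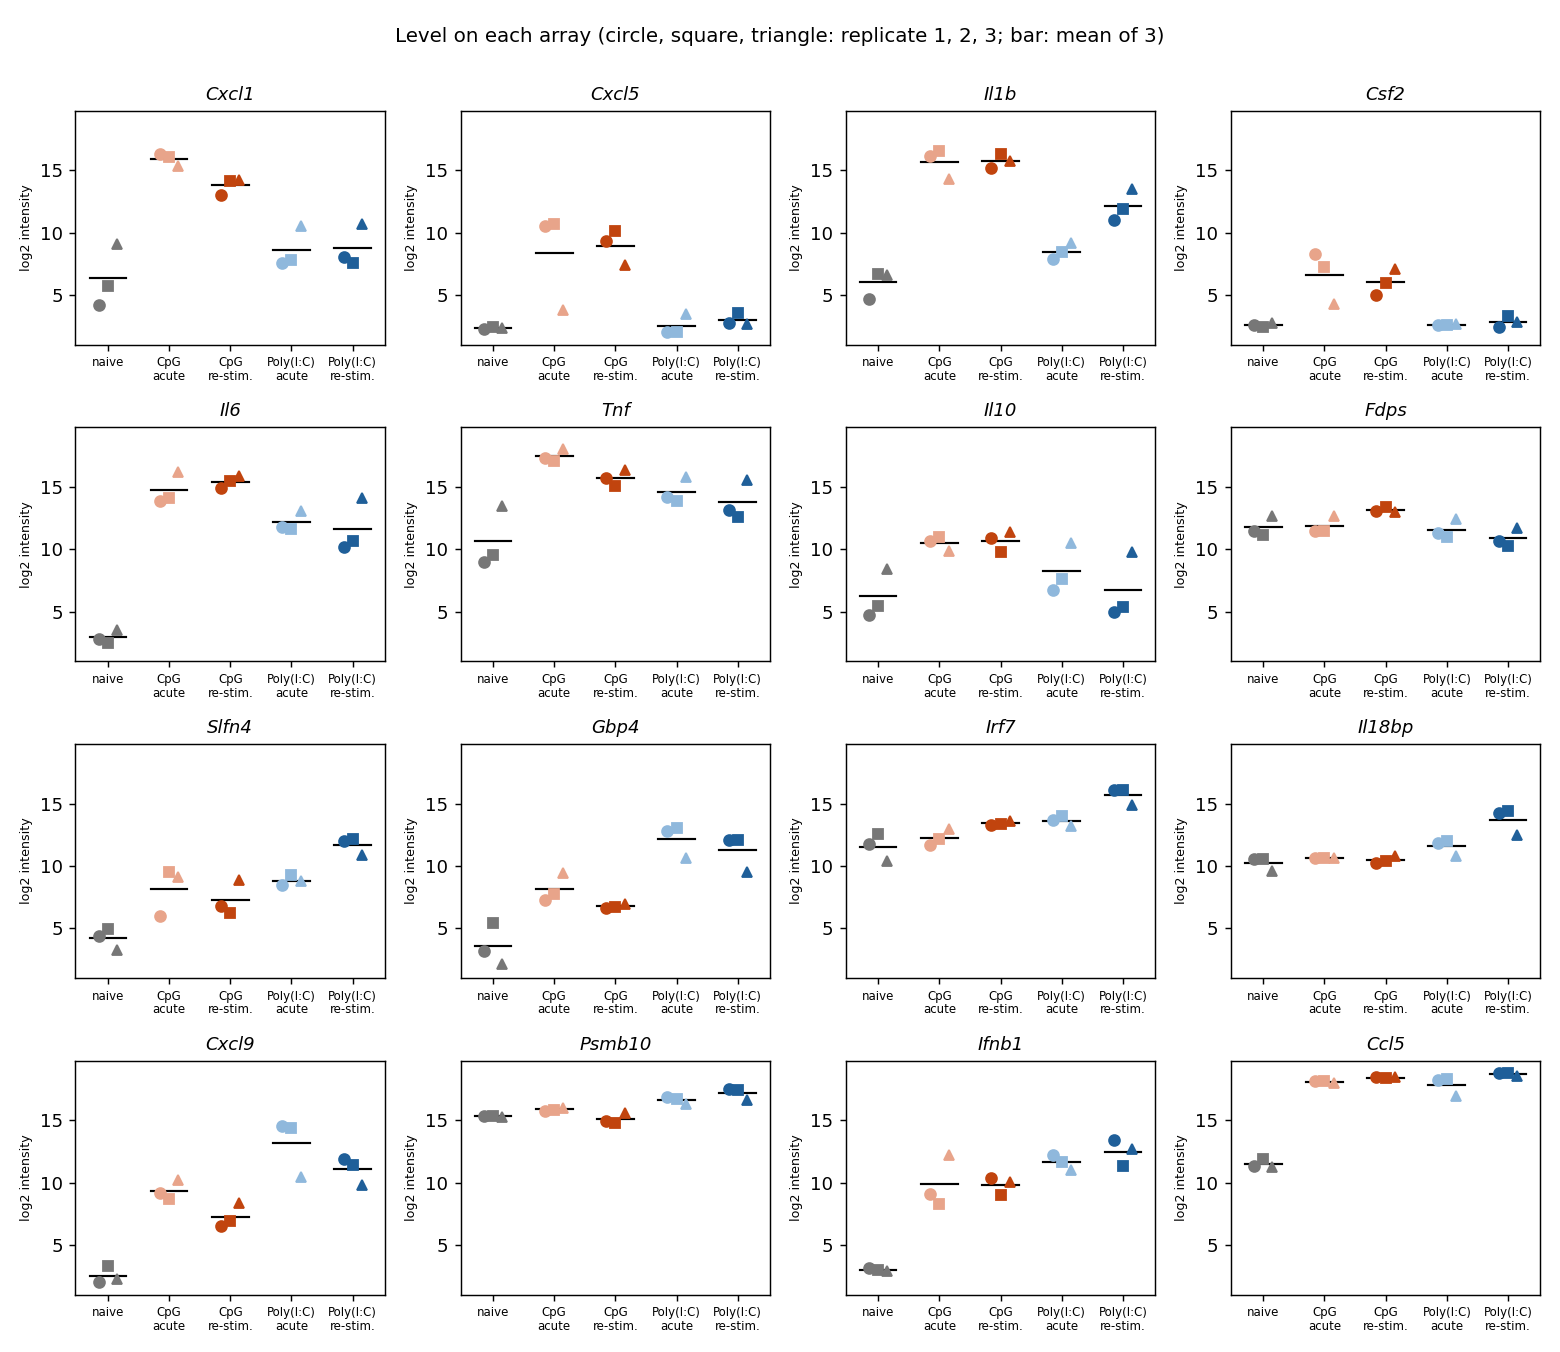
Log2 intensity of 16 genes on each array of the naive group and of the acute and re-stimulated CpG and Poly(I:C) groups, with a symbol for each replicate number and a bar at the mean of the 3 arrays. In the Poly(I:C) re-stimulated group the triangle of replicate 3 lies above the other arrays for Il6 (14.09), Tnf (15.56) and Il10 (9.79) and below them for Gbp4 (9.54), Irf7 (14.89) and Il18bp (12.49).

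Of 31 tested genes of cholesterol synthesis, oxidation and efflux, 4 were called, all higher in CpG, with a median of 0.79 against 0.03 over all genes. Within every slide 22 of the 31 were higher in CpG and 7 lower, against 28.5% and 25% of all genes, and 21 had an unadjusted p under 0.05, against 23.5% of all genes. Without Poly(I:C) replicate 3 there were 13 calls higher in CpG and 2 in Poly(I:C), against 8.56% and 8.46% of all probes. With a common median there were 9 and 0, and the blocked fit called 0. Fdps, which makes farnesyl diphosphate, measured 13.10, 13.39 and 12.99 against 10.69, 10.27 and 11.72 (4.82-fold, adjusted p = 0.0404, blocked 0.0933), around a naive mean of 11.76. Sqle, squalene epoxidase, lay at 11.83 to 12.31 against 9.47 to 10.51 (adjusted p = 0.0319, blocked 0.0878), and Sc5d, a sterol desaturase, was also called (adjusted p = 0.0456, blocked 0.101).

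Among the members of that list not called, Abcg1, which exports cholesterol, lay at 12.54 to 13.07 in CpG and at 13.30 to 14.31 in Poly(I:C) (adjusted p = 0.131). Ch25h, which makes 25-hydroxycholesterol and is itself induced by interferon, had a difference of -1.09 (adjusted p = 0.421). Outside the list, and named after their values were seen, 3 enzymes of fatty acid synthesis were called higher in CpG. Fasn, fatty acid synthase, was at least 4.29-fold higher (5.68, 6.17 and 5.75 against 3.34, 3.99 and 3.95, adjusted p = 0.0218, blocked 0.0519). No Poly(I:C) re-stimulated array had Fasn well above background, so it was tested through the CpG arrays alone. Acaca, acetyl-CoA carboxylase, was 2.4-fold higher by 1 of its 2 tested probes (adjusted p = 0.0337, blocked 0.0878) and the elongase Elovl6 4.23-fold (adjusted p = 0.0474, blocked 0.0818), with 2 of the 3 Poly(I:C) arrays well above background. A sterol regulatory element, searched as TCACNCCAC on both strands, was in 1 of the 22 promoters of the list and in 1.23% of all promoters.

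Among complement and antimicrobial proteins, 27 tested, Lcn2 was called higher in CpG and C4b higher in Poly(I:C). Without Poly(I:C) replicate 3 the counts were 8 and 3, against 8.56% and 8.46% of all probes. Lcn2, lipocalin-2, which withholds iron from bacteria, measured 16.56, 17.31 and 17.45 in CpG against 10.96, 12.09 and 14.29 (25.3-fold, adjusted p = 0.0436, blocked 0.0682). C4b measured 5.81, 6.16 and 6.09 against 7.86, 7.95 and 7.21 (3.15-fold, adjusted p = 0.0317, blocked 0.0753). Ptgs2, the inducible cyclooxygenase, was the 1 call among 17 genes of the prostaglandin and leukotriene pathway. It measured 13.36, 13.67 and 14.68 against 11.52, 11.38 and 11.99, 4.84-fold higher in CpG (adjusted p = 0.0392, blocked 0.056). Of 26 MAPK phosphatases and AP-1 genes, Dusp16, a phosphatase of JNK and p38, was 3-fold higher in CpG (adjusted p = 0.0491, blocked 0.0598). Ier3 was 2.2-fold higher, at 12.53, 12.56 and 12.88 against 11.59, 11.45 and 11.52 (adjusted p = 0.0319, blocked 0.0759).

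Among 35 TLR adapters, kinases and IRFs only Irf7 and Irf1 were called, both higher in Poly(I:C). With Poly(I:C) replicate 3 left out, 4 were called higher in Poly(I:C) and 5 in CpG, against 8.46% and 8.56% of all probes. Irf1, an interferon-induced transcription factor, measured 13.43, 13.35 and 13.77 against 15.07, 15.01 and 15.09, with the third Poly(I:C) array level with the others (2.91-fold, adjusted p = 0.0216, blocked 0.0604), and 1 of its 2 tested probes was called. The adapters of the 2 receptors were not called, nor were the subunits and feedback inhibitors of NF-kB, 0 of 28 by limma, of which 10 had an unadjusted p under 0.05. Of these 28, 7 were called higher in CpG and 1 in Poly(I:C) without Poly(I:C) replicate 3, against 8.56% and 8.46% of all probes. Nfkb1 had a difference of 0.24 (adjusted p = 0.664), Bcl3 of 0.09 (adjusted p = 0.819) and Socs1 of 1.79 (adjusted p = 0.225, called without Poly(I:C) replicate 3). Those of Nfkb1 and Bcl3 changed sign without Poly(I:C) replicate 2 and replicate 3, respectively. Keap1, which targets NRF2 for degradation, was the 1 call of 21 NRF2 genes (1.91-fold higher in Poly(I:C), adjusted p = 0.0491, blocked 0.0948).

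No gene was called by limma in 8 further lists. Those with an unadjusted p under 0.05 numbered 15 of 33 for glycolysis and the HIF-1 response, 6 of 16 for arginine, nitric oxide and itaconate metabolism, 6 of 23 for scavenger and C-type lectin receptors, 3 of 19 for matrix proteases and their inhibitors, 7 of 41 for DNA replication and mitosis, 3 of 59 for the respiratory chain, 2 of 7 for lymphoid markers and 2 of 5 for dendritic cell markers, against 23.5% of all genes. Calls higher in CpG and in Poly(I:C) without Poly(I:C) replicate 3 were 5 and 3 for glycolysis and the HIF-1 response, 3 and 2 for arginine, nitric oxide and itaconate metabolism, 6 and 1 for scavenger and C-type lectin receptors, 4 and 1 for matrix proteases and inhibitors, 0 and 4 for DNA replication and mitosis, 1 and 0 for the respiratory chain, 0 and 0 for lymphoid markers and 0 and 1 for dendritic cell markers. Of all probes, 8.56% and 8.46% were called so without that array. Respiratory chain genes all lay between -0.44 and 0.64. Some members of these lists had large differences with 1 array apart from its group. The scavenger receptor Marco measured 18.82 on each of the 3 CpG arrays and 12.18, 12.22 and 18.39 on the Poly(I:C) arrays (adjusted p = 0.173). Arg1, the arginase of alternatively activated macrophages, measured 9.87, 12.18 and 8.65 against 3.56, 3.69 and 6.43 (adjusted p = 0.0553). The stromal marker Lum, which encodes lumican, was called in CpG (at least 5.84-fold higher, adjusted p = 0.0433, blocked 0.0878). Lum was well above background on no naive array and no Poly(I:C) array, so it was tested through the CpG arrays alone.

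**Figure D3:**
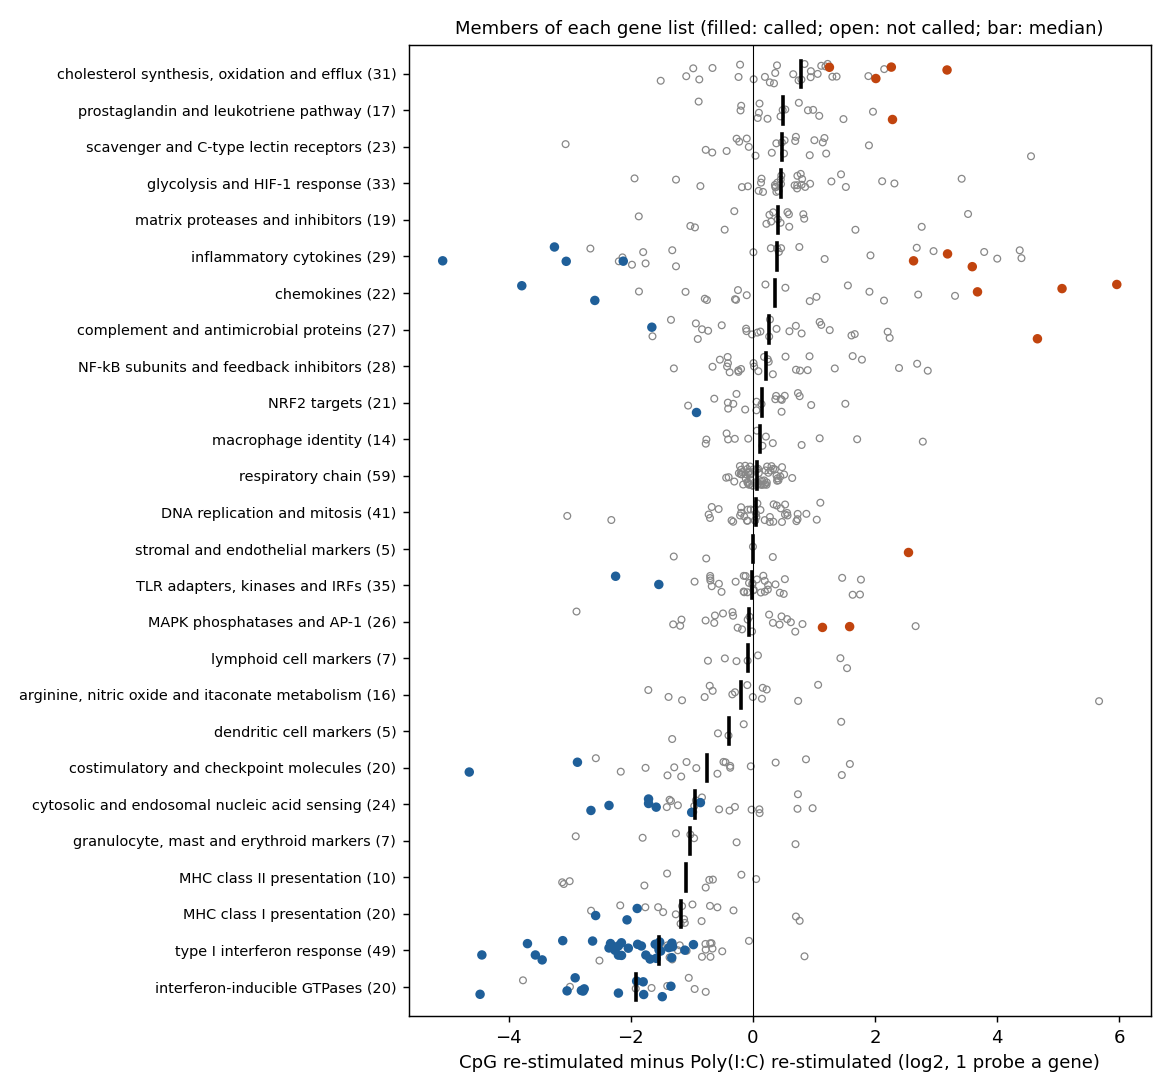
Difference in log2 intensity, CpG re-stimulated minus Poly(I:C) re-stimulated, for the tested members of the 26 gene lists, 1 probe a gene, with a bar at the median of each list and its number of tested members in parentheses. Filled points are called, and the medians run from -1.91 for the interferon-inducible GTPases to 0.79 for cholesterol synthesis, oxidation and efflux.

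Outside the lists the naming rule, which passes over symbols of the Rik, Gm and Ensembl kind, gave U90926, Ereg, Tm4sf1, Ppef2 and Aldh5a1 toward CpG. U90926, a short transcript of macrophages with no settled function, measured between 10.62 and 11.74 on the CpG arrays and 1.72, 2.40 and 5.81 on the Poly(I:C) arrays, where 1 of the 3 had it well above background (adjusted p = 0.0257, blocked 0.0682). Ereg, the EGF receptor ligand epiregulin, measured 7.76, 8.94 and 6.82 against 4.33, 4.45 and 3.61, at least 13.1-fold higher in CpG, and the blocked fit kept the call (adjusted p = 0.0304, blocked 0.0489). Ppef2, a calcium-binding protein phosphatase, was at least 11.4-fold higher, at 5.92, 6.84 and 6.77 against 2.69, 3.11 and 3.15 (adjusted p = 0.0172, blocked 0.0406). Neither Ereg nor Ppef2 was well above background on any Poly(I:C) re-stimulated array, so both were tested through the CpG arrays alone. Aldh5a1, a mitochondrial dehydrogenase, measured 7.79, 8.29 and 8.06 against 3.85, 4.17 and 5.82, around a naive mean of 6.95, and was well above background on 1 of the 3 Poly(I:C) arrays (adjusted p = 0.0317, blocked 0.0701). Tm4sf1, a membrane protein, was 12.7-fold higher in CpG (adjusted p = 0.0482, blocked 0.0734).

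Many of the largest differences toward Poly(I:C) had a feature of the probe in common. The 5 genes outside the lists that the same rule gave toward Poly(I:C) were Serpinh1, Cacna1h, Celf3, Ptprg and Gpr124, a collagen chaperone, a calcium channel, an RNA-binding protein of neurons, a receptor phosphatase and an adhesion receptor of vessels. Each was read through a probe of 60 bases, and these probes carry runs of G. Shown here are 24 bases of each probe, 5′ to 3′ as the array file gives it, with the 12 bases richest in G in capitals and the probe's position in mm9. The last 2 lines give the same stretch for Slfn4 and Gbp4.
Serpinh1 (chr7:106493971-106494030): GGGGAGGGGAAAtatgagcctttg
Cacna1h (chr17:25511235-25511294): agctaaGGGGAGGGGAGGggcaaa
Celf3 (chr3:94295991-94296049): GGGTGGGGAGGGtaaaggataaga
Ptprg (chr14:13074419-13074478): GGGGGAGGGGTTttataacctgaa
Gpr124 (chr8:28233778-28233837): aaGGGGAGGGAGGGgatgaagtgc
Slfn4 (chr11:83002974-83003033): taagacaGTCTACAGGCTGgtctt
Gbp4 (chr5:105544852-105544911): ttgtttccaCGGTACTGAGAGata
The first 5 stretches hold 8 to 10 G in 12 bases, and the last 2 hold 4 and 5, where the median over all probes tested was 5. The Serpinh1 probe, with 8, falls just under the 9 G used as a limit in what follows.

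Cacna1h measured 4.82, 4.13 and 3.96 on the CpG arrays and 11.92, 9.91 and 10.13 on the Poly(I:C) arrays (adjusted p = 0.0172, blocked 0.0406), was well above background on 1 CpG array, and was called by 1 of its 2 tested probes. Serpinh1 measured 3.57, 2.13 and 2.80 against 10.66, 8.41 and 8.94 and was at least 89.7-fold higher in Poly(I:C) (adjusted p = 0.0172, blocked 0.0406). Celf3 was at least 67.5-fold higher (blocked adjusted p = 0.0423), and Ptprg at least 63.3-fold (blocked 0.0632). Serpinh1, Celf3 and Ptprg were well above background on no CpG array, so they were tested through the Poly(I:C) arrays alone. Gpr124, also well above background on 1 CpG array, lay at 3.73 to 5.87 against 9.27 to 11.67 (adjusted p = 0.027, blocked 0.0406). Fgf8, the growth factor in the cytokine list, has 9 G in 12 bases and measured 5.35, 3.95 and 5.16, well above background on 2 of the 3 CpG arrays, against 11.14, 8.99 and 9.57 (33.9-fold, adjusted p = 0.0221, blocked 0.0458). In all 6 genes the first Poly(I:C) array was the highest, and the third lay above the second.

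The count of G was looked at after these values were seen, so what follows is a description with no test. Among probes with at most 8 G in any 12 consecutive bases, 1.39% to 1.81% were called higher in Poly(I:C), whatever the count. The share was 12.7% of 237 probes with 9 G, 40.2% of 82 with 10 G and 6 of 7 probes with 11 or 12 G. Calls higher in CpG showed no such rise, with 3 among the 326 probes of 9 G or more, 1 of them the probe of Cxcl2. Nor did runs of C, since 0 of 64 probes with 10 C and 0 of 10 with 11 or 12 C were called in either direction. A probe could enter the counts by G through the Poly(I:C) arrays alone, and this filter can raise the shares. Of the 89 probes with 10 G or more, 61.8% to 74.2% were well above background on a CpG re-stimulated array. On the Poly(I:C) re-stimulated arrays it was 97.8% to 100%. The 9 bases GGGGAGGGG occur in 48 tested probes (0.182%), and 27 of these 48 were called higher in Poly(I:C), with a median difference of -3.84.

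Probes with 9 G or more thus made up 1.24% of the probes tested, 69 of the 500 called higher in Poly(I:C) (13.8%), and 38 of the 50 with the largest excess there. Of those 50, 29 were well above background on no CpG re-stimulated array. They were tested through the Poly(I:C) arrays alone, and the size of their excess rests on values near the floor. The median level of the 326 probes with 9 G or more was 7.98 to 9.87 on the 6 Poly(I:C) arrays, acute and re-stimulated. On the 19 other arrays of the series the median of these 326 was 5.79 to 6.91. The third Poly(I:C) re-stimulated array, at 8.25, lay with its group in this respect. Whether these probes read the genes they are named for was not tested. None of the probes of the interferon and GTPase lists has 9 G or more. When probes of 9 G or more were left out of the test, an alternative chosen after seeing the data, 478 calls remained, 368 of them higher in Poly(I:C).

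**Figure D4:**
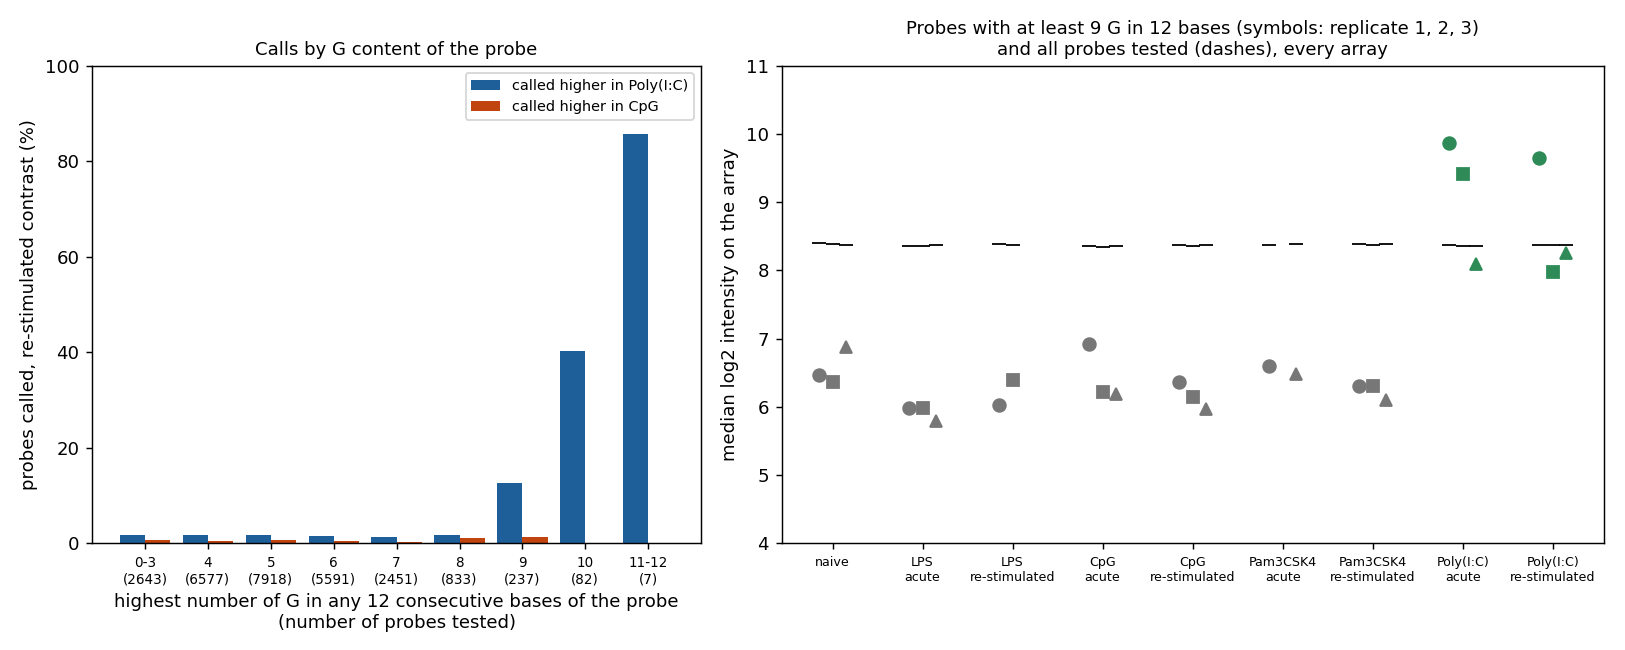
Left, percentage of probes called in either direction against the highest number of G in any 12 consecutive bases, with the number of probes tested in parentheses, from 1.39% to 85.7% higher in Poly(I:C). Right, median log2 intensity of the 326 probes with at least 9 G on each of 25 arrays, with dashes for the median of all tested probes, where all 6 Poly(I:C) arrays lie above the 19 others.

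The same 2 ligands after a single stimulation were compared on separate arrays, in 1 fit of 12 arrays over 27782 probes. Between CpG acute and Poly(I:C) acute 609 probes (2.19%) were called, 254 higher in CpG and 355 in Poly(I:C). Of the 651 probes called after re-stimulation 187 were also called in the same direction here, which is 28.7% of the re-stimulated calls and 30.7% of the acute calls. For the 151 higher in CpG the number was 22, for the 431 higher in Poly(I:C) with under 9 G it was 98, and for the 69 with 9 G or more it was 67. The median acute difference was -1.29 for the interferon response and -1.90 for the GTPases, near their medians after re-stimulation. For MHC class I presentation it was -0.32, against -1.17 after re-stimulation, and for MHC class II -0.10, against -1.09.

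Whether the ligands differed in the change from acute to re-stimulated was tested as an interaction. No probe was called by limma, where the smallest adjusted p was 0.187, and 2845 had an unadjusted p under 0.05. Of the 20 genes of MHC class I presentation 12 had one, and of the 10 of class II 2 did, against 1547 of all 14031 genes. High counts were not particular to class I. They were 11 of 20 for costimulatory and checkpoint molecules, 13 of 26 for MAPK phosphatases and AP-1 and 12 of 29 for inflammatory cytokines. The interferon-inducible GTPases had 0 of 20. Without Poly(I:C) re-stimulated replicate 3 there were 448 calls. The values side by side were as follows for genes with unlike differences at the 2 stages. Il1b differed by 7.19 after acute stimulation (15.66 in CpG against 8.47) and by 3.59 after re-stimulation (interaction -3.59, adjusted p = 0.352). Ptgs2 differed by 5.48 and then 2.27 (interaction adjusted p = 0.187), with the Poly(I:C) mean at 9.06 acute and 11.63 re-stimulated. Tm4sf1 had means of 6.06 and 6.05 after acute stimulation and differed by 3.67 after re-stimulation (interaction adjusted p = 0.311). Slfn4 differed by -0.64 and then -4.44 (interaction adjusted p = 0.42). None of these shifts passed the test. Cxcl9, by contrast, differed by -3.79 both times.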

How the data were processed

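Arrays were Agilent 8 x 60K with Cy3-labelled RNA, 62976 spots each. The authors deposited log2 values, made by RMA background correction and quantile normalisation (limma and RMA in the submitters' processing notes), and the scanner intensity of every spot, which the authors deposited without normalisation and which gave the detection marks and alternatives. Rebuilt values differed from the deposited log2 values by a median of 0.0354. Gene names come from the array files and positions are in mm9. Promoters are from RefSeq (GRCm38.p6).

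Tests used R 4.3.3, limma 3.58.1, with Benjamini-Hochberg adjustment over all probes tested. Scripts were tested on simulated data. Between 45.3% and 47.4% of probes were well above background on the 6 arrays, and the 3 arrays a group limit the precision. The 6 arrays lie on 3 slides of 1 scan day, each slide holding 1 replicate of both groups. After subtracting group means, arrays with the same number correlated at 0.14, 0.37 and 0.22 over the tested probes, so the numbers were taken as pairs. The main design is unpaired, since the study's methods name a linear model and mention no block, and the block is given beside it.

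The comparison, the 26 gene lists and the naming rule were chosen with earlier results of these data known. The rule names up to 2 called, non-overlapping genes per direction and list, the 5 largest per direction outside the lists (Rik, Gm and Ensembl-type symbols left out), and genes that the study discusses for re-stimulation. Il23a was not tested, since too few arrays had it well above background. Alternatives changed background correction, normalisation, detection filter, samples in the fit, call rule and variance prior, or left out each array. A few genes of the lists are not reported here.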

Additional observations from a re-analysis of the deposited data

How the results depend on the processing

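The number of calls moved with most settings while directions mostly held. Called probes (all, higher in CpG, higher in Poly(I:C)) were 651, 151 and 500. With the replicate block they were 88, 13 and 75, with no detection filter 227, 30 and 197, in 1 fit of all 9 groups 2338, 1029 and 1309, and with an intensity trend in the prior 1157, 369 and 788. Those higher in CpG were 298 with normexp, 287 with a common median and 262 when all 3 arrays of a group had to be well above background. Leaving out single arrays gave 0 to 4483 calls, 0 to 2255 higher in CpG and 0 to 2228 higher in Poly(I:C). Values rebuilt from the scanner files, the 75th percentile scaling, a minimum of 2-fold and no minimum fold stayed within 1.5 times of each count. The acute contrast gave 609 calls, 1099 with the replicate block, 361 with no filter, 1286 in 1 fit of all 9 groups and 129 to 1736 when arrays were left out (136 and 129 for Poly(I:C) acute replicates 1 and 2, 140 without CpG acute replicate 2, 206 without CpG acute replicate 1, 395 without CpG re-stimulated replicate 2, 1247 without Poly(I:C) acute replicate 3 and 1736 without CpG acute replicate 3). The interaction gave 0 calls, 0 with the replicate block, 11 in 1 fit of all 9 groups and 0 to 448 without single arrays (4 without Poly(I:C) re-stimulated replicate 2 or Poly(I:C) acute replicate 3, 19 without CpG acute replicate 3). The cause was not tested in any of these.

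Of 53 named genes, 40 were called. The replicate block ended 32 of these calls and added 2, the fit with no detection filter ended 25, and leaving out CpG replicate 1 or 2 ended all 40. Leaving out probes of 9 G or more ended 5 (Cxcl9, Dusp16, Keap1, Tm4sf1 and Vcam1, each with an adjusted p just above the threshold). It also took the called genes Cacna1h, Celf3, Fgf8, Gpr124 and Ptprg out of the test, since their probes have 9 G or more. Ccl2 reversed to 0.13 with a common median, and over single arrays left out it ran from -0.58 to 0.36, the last without Poly(I:C) replicate 3. Bcl3 ran from -0.069 without that array to 0.17, and Nfkb1 from -0.017 without Poly(I:C) replicate 2 to 0.54. None of these 3 was called in any setting.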
